A study of Mus musculus with 4 samples.

Results

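Genes of the skeletal muscle lineage were examined in cultured embryonic fibroblasts deficient for SmcHD1 and in wild-type ones. SmcHD1 is a noncanonical SMC protein that helps keep the inactive X chromosome and some autosomal clusters silent. The 10 genes were chosen by name from a table of 22691 genes, and all 10 were found in it. They comprise 2 transcription factors (Myod1 and Myog), 7 genes of the sarcomere (Acta1, Actc1, Myh3, Myl1, Tnnc1, Tnnt1 and Tnnt2) and the intermediate filament gene Des. The MD1 group consisted of 2 libraries from fibroblasts with the genotype Smchd1 MD1/MD1; Xist deltaA/+, and the WT group of 2 libraries from fibroblasts with the genotype Smchd1 +/+; Xist deltaA/+. All 4 libraries came from female E13.5 fetuses of C57BL6/J mothers and fathers that were F1 hybrids of JF1 and C57BL6/J, and both groups carried the Xist deltaA mutation on 1 X chromosome. Polyadenylated RNA of the cultures was sequenced with a stranded kit. Expression was deposited as FPKM (fragments scaled to transcript length and library size). The authors gave 1 mean for each group, without values of the single libraries. No spread, error or p-value can therefore be given for any ratio below, and 1 library could drive a mean.

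Skeletal muscle is built from myoblasts, which leave the cell cycle, fuse into multinucleate myotubes and assemble sarcomeres. MyoD, encoded by Myod1, commits cells to this lineage, and myogenin, encoded by Myog, drives their terminal differentiation. Both bind E-boxes (CANNTG) next to muscle genes, while serum response factor binds CArG boxes in the promoters of muscle actins. Fibroblast cultures from fetuses can hold other mesenchymal cells, and fibroblasts themselves can be converted into muscle by added MyoD. In bulk cultures, fewer muscle-lineage cells and less muscle RNA per cell cannot be told apart.

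The promoters of 4 of these genes are shown to set the regulator Myog beside 3 sarcomere genes: Acta1, the most abundant of the 10 genes, Actc1, the lowest in MD1 relative to WT on the log2(FPKM + 1) scale, and Tnnt2, which kept the highest percentage of its WT level. Each is the 250 bases before the annotated start, 5′ to 3′ in the direction of transcription, from RefSeq in GRCm38.p6. Capitals mark E-boxes (CANNTG, which reads as the same motif on both strands) and CArG boxes.
Myog (chr1:134289754-134290003, + strand): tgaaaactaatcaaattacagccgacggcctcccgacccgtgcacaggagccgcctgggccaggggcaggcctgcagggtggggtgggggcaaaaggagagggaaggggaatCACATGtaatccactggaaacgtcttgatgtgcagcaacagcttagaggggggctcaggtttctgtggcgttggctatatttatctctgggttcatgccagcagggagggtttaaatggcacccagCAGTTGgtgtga
Acta1 (chr8:123894776-123895025, - strand): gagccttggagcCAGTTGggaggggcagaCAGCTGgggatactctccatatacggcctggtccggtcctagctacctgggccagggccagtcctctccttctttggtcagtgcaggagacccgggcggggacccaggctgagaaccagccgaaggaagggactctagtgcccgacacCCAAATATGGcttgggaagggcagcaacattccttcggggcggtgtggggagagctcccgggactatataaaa
Actc1 (chr2:114052876-114053125, - strand): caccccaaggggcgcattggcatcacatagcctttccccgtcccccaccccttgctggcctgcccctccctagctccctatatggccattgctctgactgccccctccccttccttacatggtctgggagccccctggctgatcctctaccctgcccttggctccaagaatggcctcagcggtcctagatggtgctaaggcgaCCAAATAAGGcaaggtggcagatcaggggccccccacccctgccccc
Tnnt2 (chr1:135836084-135836333, + strand): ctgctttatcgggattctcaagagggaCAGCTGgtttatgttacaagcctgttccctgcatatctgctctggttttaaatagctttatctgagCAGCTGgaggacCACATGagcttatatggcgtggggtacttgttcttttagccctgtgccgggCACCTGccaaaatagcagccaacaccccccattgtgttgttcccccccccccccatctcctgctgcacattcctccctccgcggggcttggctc
Myog had E-boxes at -138 and -12, counted from the annotated start. Acta1 had E-boxes at -238 and -221 and a CArG box at -73, and Actc1 had a CArG box at -47 and no E-box in this window. Tnnt2 had 4 E-boxes in this window, the highest number among the 9 genes with a window. A window was found for 9 of the 10 genes, all but Myod1, and the first was taken for Tnnt2, which has more than one. Of these 9 genes, 8 had an E-box, against 66.2% of 32851 promoter windows of the same length, and 2 had a CArG box, against 1.47%. The other motifs sought were the box bound by MEF2 factors, which 0 had, against 2.92%, and TATAAA, which 3 had, against 7.59%. The motif matches describe the sequence and were not tested for binding. Set by the number of E-boxes in the window, the plain log2 ratio of MD1 over WT was -2.20 for Actc1 with none, -2.24 to -1.75 for Myh3, Tnnt1 and Myl1 with 1, -1.95 to -1.32 for Des, Myog, Acta1 and Tnnc1 with 2, and -0.65 for Tnnt2 with 4. The ranges for 1 and 2 E-boxes overlap. The place of Tnnt2 depends on the window taken, since its other window had only an E-box at -156. This order was noticed after the values were seen, rests on 9 genes and was not tested.

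Some fibroblast markers were at high levels and others were low. Vimentin (Vim) had 2802 FPKM in MD1 and 2790 FPKM in WT. The collagen gene Col1a1 had 1081 FPKM in MD1 and 1688 FPKM in WT. By contrast, the fibroblast marker Pdgfra had 9.25 FPKM in MD1 and 4.79 FPKM in WT. Smchd1 itself had 1.94 FPKM in MD1 and 14.7 FPKM in WT, or 13.1% of the WT level. Allele-specific reads, which the table gives for X-linked genes alone, numbered 704635 and 806626 in the MD1 libraries and 544330 and 521768 in the WT libraries. The total depth behind the FPKM values is unknown.

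All 10 muscle genes had a lower FPKM in MD1 than in WT, against 52.5% of the 16810 genes above 0 in both groups. The remaining level ranged from 21.1% of WT for Myh3 to 63.6% for Tnnt2, with a median of 30.1%. A log2 ratio is that of FPKM + 1, MD1 divided by WT, unless called plain. Adding 1 keeps low genes from giving extreme ratios but understates their change. Genes counted on this scale had a mean FPKM over both groups of 1 or more and values above 0 in both, which held for 9 of the 10. The other gene, Myod1, had a mean of 0.921 FPKM. All 9 genes were at 1 FPKM or more in both groups, so none entered through its WT value alone. Of these 9, 8 were at least 2-fold lower in MD1, 0 were 2-fold higher and Tnnt2 lay in between. Among all 11399 genes that met the same minimum, 2.81% were at least 2-fold lower and 1.39% at least 2-fold higher. The median log2 ratio was -1.54 over the 9 muscle genes and 0.0058 over all 11399 genes. With the minimum set at a mean of 5 FPKM, 5 of 6 muscle genes were at least 2-fold lower, against 2.25% of all genes. On the plain scale 9 of the 10 were at least 2-fold lower, against 11.4% of the 16810 genes above 0 in both groups.

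**Figure D1:**
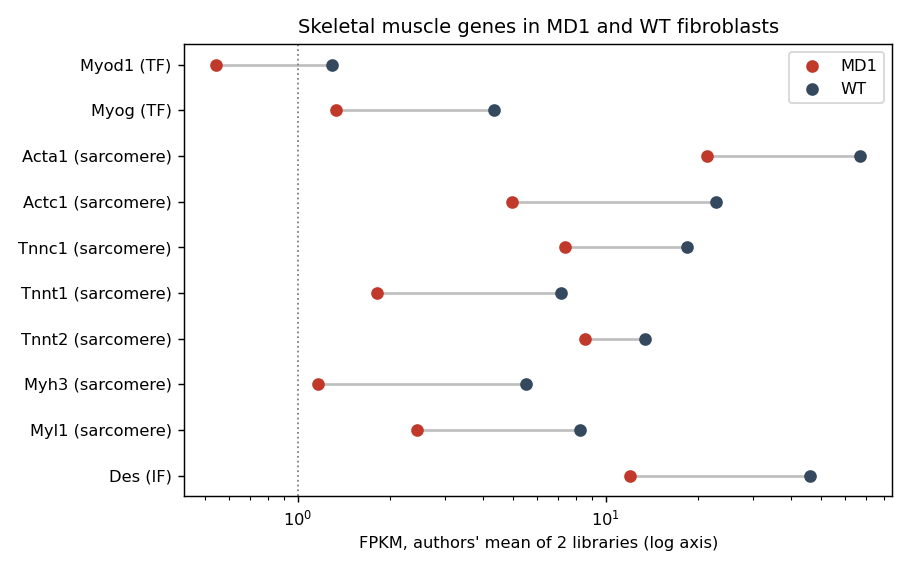
FPKM of the 10 muscle genes on a log axis, with the authors' mean of 2 libraries for MD1 (red) and WT (dark blue) and a dotted line at 1 FPKM; TF stands for transcription factor and IF for intermediate filament. The MD1 point lies left of the WT point in every row, and Tnnt2 has the shortest line, at 8.56 FPKM in MD1 and 13.5 FPKM in WT.

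The transcription factors were among the 3 least abundant of the 10 genes in both groups. Myod1 (chromosome 7, 53631844 to 53634462, plus strand, mm9) had 0.545 FPKM in MD1 and 1.30 FPKM in WT. This was 42.0% of the WT level, a log2 ratio of -0.57 and a plain log2 ratio of -1.25. Myog (chromosome 1, 136186581 to 136189125, plus strand) had 1.33 FPKM in MD1 and 4.36 FPKM in WT, which left 30.5% and gave a log2 ratio of -1.20. Myog was thus more abundant than Myod1 in both groups, with a quotient of 2.44 in MD1 and 3.36 in WT. The other genes of the MyoD family, which were looked up after the values of Myod1 and Myog were seen, were close to 0. Myf5, active in early myoblasts, had 0.0405 FPKM in MD1 and 0.243 FPKM in WT, and Myf6 was listed at 0 in MD1 and at 0.0467 FPKM in WT.

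The actin genes held the highest level and one of the largest differences. Acta1 (chromosome 8, 126415658 to 126418675, minus strand), the skeletal muscle alpha actin gene, had 21.3 FPKM in MD1 and 67.1 FPKM in WT, and was the most abundant of the 10 genes in both groups. Its log2 ratio was -1.61, with 31.7% of the WT level left. Actc1 (chromosome 2, 113873025 to 113878547, minus strand), the cardiac alpha actin gene that is also used in embryonic skeletal muscle, had 4.96 FPKM in MD1 and 22.8 FPKM in WT. With a log2 ratio of -2.00 and 21.7% of the WT level left, it was the lowest of the 10 on this scale. Among the 10 genes it had rank 5 by level in MD1 and rank 3 in WT.

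The other actins did not share 1 ratio, which was looked up after the values of Acta1 and Actc1 were seen. Acta2, the smooth muscle alpha actin of myofibroblasts, had 1826 FPKM in MD1 and 3015 FPKM in WT, with 60.5% left. Actg2, the smooth muscle gamma actin gene, had 122.1 FPKM in MD1 and 355.3 FPKM in WT, with 34.4% left. The cytoplasmic actin genes differed little, with Actb at 105.6% and Actg1 at 94.5% of WT. Reads of actins could be assigned to the wrong gene, since their coding sequences are alike. Of the words of 50 bases in the Acta1 transcript, 2.22% also occurred in transcripts of other genes of GENCODE vM21, among them Actb, and for Actc1 0% did. Read length is not given in the sources used here, so this bounds the sharing for exact matches of that length and no further.

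The troponin genes, which make the calcium switch of the thin filament, split by isoform. Tnnt1 (chromosome 7, 4456172 to 4467577, minus strand), troponin T of slow skeletal fibres, had 1.82 FPKM in MD1 and 7.17 FPKM in WT, with 25.3% left and a log2 ratio of -1.54. Tnnt2 (chromosome 1, 137732911 to 137748845, plus strand), cardiac troponin T, which embryonic skeletal muscle also makes, had 8.56 FPKM in MD1 and 13.5 FPKM in WT, with 63.6% left and a log2 ratio of -0.60. The quotient of Tnnt2 over Tnnt1 was 4.71 in MD1 and 1.88 in WT. Tnnc1 (chromosome 14, 32021498 to 32024897, plus strand), troponin C of slow skeletal and cardiac muscle, had 7.39 FPKM in MD1 and 18.4 FPKM in WT, with 40.2% left and a log2 ratio of -1.21. Tnnt2 was the only one of the 10 genes that kept more than 50% of its WT level.

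Among related troponins, Tnnt3, Tnni1, Tnnc2 and Tnni2 kept 24.0% to 34.99% of the WT level, and Tnni3 was at 105.5%. Tnnc2 and Tnni2 were at 1 FPKM or more in WT alone, and Tnni3 in neither group. Fast troponin T (Tnnt3) had 1.58 FPKM in MD1 and 5.91 FPKM in WT, with 26.7% left. Slow troponin I (Tnni1), whose gene lies 25.3 kb from Tnnt2 in the table, had 4.01 FPKM in MD1 and 12.8 FPKM in WT, with 31.3% left. Fast troponin C (Tnnc2) had 0.800 FPKM in MD1 and 3.33 FPKM in WT, with 24.0% left. Fast troponin I (Tnni2), chosen after its values were seen, had 0.359 FPKM in MD1 and 1.03 FPKM in WT, with 34.99% left, a log2 ratio of -0.58 and a plain log2 ratio of -1.52. Cardiac troponin I (Tnni3), chosen after its values were seen, was near 0, with 0.301 FPKM in MD1 and 0.286 FPKM in WT.

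The myosin genes gave the thick filament side of the same picture. Myh3 (chromosome 11, 66891802 to 66915793, plus strand), the embryonic myosin heavy chain gene, had 1.16 FPKM in MD1 and 5.51 FPKM in WT. Its remaining level of 21.1% was the lowest of the 10 genes, and its log2 ratio was -1.59. Myl1 (chromosome 1, 66970870 to 66991630, minus strand), an alkali light chain gene of fast fibres, had 2.45 FPKM in MD1 and 8.23 FPKM in WT, with 29.7% left and a log2 ratio of -1.42. Other sarcomeric heavy chain genes, looked up after the value of Myh3 was seen, were under 1 FPKM in both groups. Perinatal Myh8 was the highest of them, with 0.116 FPKM in MD1 and 0.492 FPKM in WT. In Myh3, 4.81% of transcript words of 50 bases were shared with other genes, among them Myh8, and in Myl1 23.4% were shared with the pseudogene Mylf-ps, so their FPKM is less certain. For Des, Myog, Myod1, Tnnc1, Tnnt1 and Tnnt2 the share was 0%.

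Des (chromosome 1, 75356867 to 75365154, plus strand) encodes desmin, the intermediate filament protein that ties myofibrils together in skeletal, cardiac and smooth muscle. It had 11.99 FPKM in MD1 and 46.2 FPKM in WT, with 25.9% left and a log2 ratio of -1.86. Des was the second most abundant of the 10 genes in both groups. Vim, its counterpart in fibroblasts, had 100.5% of its WT level.

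Beside each other, the transcription factors and sarcomere genes differed mainly through the scale. On the log2(FPKM + 1) scale the 2 transcription factors had a median of -0.89 and the 7 sarcomere genes a median of -1.54, which are 0.65 apart. On the plain scale the medians were -1.48 and -1.75, which are 0.27 apart. Myod1 and Myog kept 42.0% and 30.5% of their WT level, and both values lay inside the range of the sarcomere genes, 21.1% to 63.6%. The quotient of Acta1 over Myog was 15.99 in MD1 and 15.4 in WT. No test of the difference between the 2 classes was possible. The order of the 10 genes by level was largely shared, with 6 genes at the same rank in both groups.

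**Figure D2:**
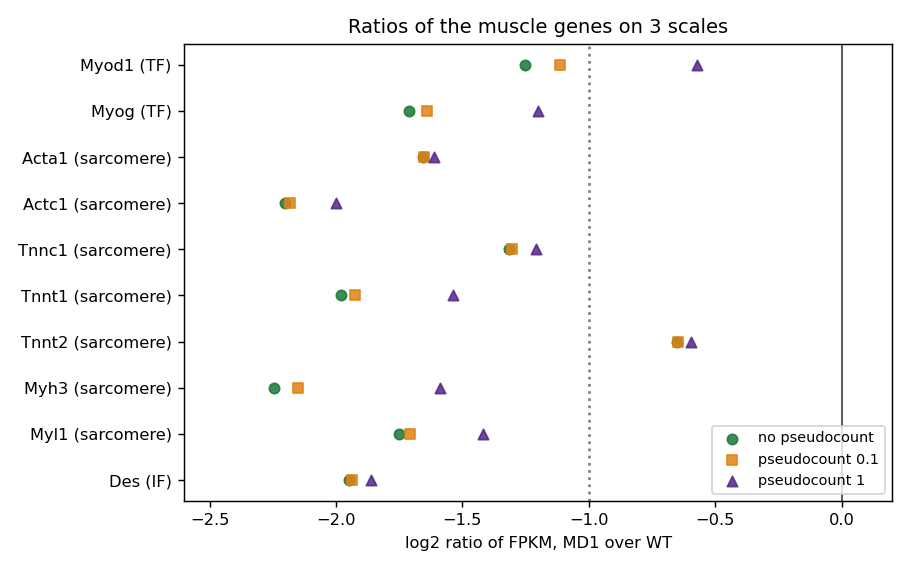
Log2 ratio of MD1 over WT for each muscle gene with no pseudocount (circles), with 0.1 added (squares) and with 1 added (triangles) to both FPKM values; the dotted line marks a 2-fold lower value. Adding 1 moves Myod1 from -1.25 to -0.57 and Acta1 by little, from -1.66 to -1.61, while Tnnt2 lies right of the dotted line on each scale.

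Further skeletal muscle genes were taken from 5 lists of 101 genes in all. Of these, 35 met the minimum, of which 12 were at least 2-fold lower in MD1, 0 were 2-fold higher and 23 lay in between, with a median log2 ratio of -0.79. Over all genes that met the minimum, 2.81% were at least 2-fold lower and 1.39% at least 2-fold higher, the shares to set beside each list below. Among the 12, Myom1, Pdlim3, Tnnc2 and Pgam2 were under 1 FPKM in MD1 and met the minimum through their WT values. The remaining 66 genes were too low, and 58 of them were above 0 in both groups. Among these 58, 35 had a plain FPKM in MD1 at least 2-fold lower, against 25.9% of all 5411 genes under the minimum, and their median was 40.5% of WT. Plain ratios of such low genes are imprecise, and the depth behind them is unknown.

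The contractile lists held 8 of the 12 genes that were at least 2-fold lower. Of 6 measured thick filament and M band genes, 4 were at least 2-fold lower (median -1.11). Mylpf, a fast regulatory light chain gene, had 8.91 FPKM in MD1 and 25.7 FPKM in WT, Myl4, an embryonic and atrial light chain gene, 5.17 FPKM in MD1 and 13.3 FPKM in WT, and Myom1, the gene of the M band protein myomesin, 0.611 FPKM in MD1 and 9.60 FPKM in WT. Of 9 measured thin filament and Z disc genes, 4 were at least 2-fold lower (median -0.83). The lower ones were Tnni1, Tnnt3, Tnnc2 and Pdlim3, a Z disc gene with 0.466 FPKM in MD1 and 2.55 FPKM in WT. The tropomyosin genes Tpm1, Tpm2 and Tpm3, which many cells use, kept 70.2%, 57.7% and 107.9% of WT at FPKM values of 144.2 or more in MD1 and 133.7 or more in WT.

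Of 6 measured genes of muscle metabolism and membrane, 3 were at least 2-fold lower (median -0.89). Eno3, the muscle enolase gene, had 14.2 FPKM in MD1 and 64.7 FPKM in WT, Dysf, the gene of the membrane repair protein dysferlin, 8.54 FPKM in MD1 and 18.7 FPKM in WT, and Pgam2, a muscle glycolysis gene, 0.493 FPKM in MD1 and 2.02 FPKM in WT. Of 6 measured genes of excitation and calcium handling, 1 was 2-fold lower (median -0.44). It was Jph2, which joins calcium stores to the surface membrane, with 15.8 FPKM in MD1 and 34.3 FPKM in WT. Jph1 had 3.61 FPKM in MD1 and 3.19 FPKM in WT.

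Myog, at -1.20, was past 2-fold, and the other measured regulators were not on the log2(FPKM + 1) scale. Of 8 measured genes of muscle transcription and fusion, 0 were past 2-fold in either direction, and their median was -0.19. Mef2c, a partner of the MyoD family, had 1.07 FPKM in MD1 and 2.72 FPKM in WT, and Tmem8c, which encodes the fusion protein myomaker, 0.631 FPKM in MD1 and 2.06 FPKM in WT. On the plain scale they kept 39.2% and 30.6% of WT. More widely used factors differed less, with Mef2d at 27.1 FPKM in MD1 and 28.4 FPKM in WT and Srf, the gene of serum response factor, at 33.3 FPKM in MD1 and 28.1 FPKM in WT. Pax7, the marker of satellite cells, was listed at 0 in MD1 and at 0.00610 FPKM in WT, and Pax3 had 0.295 FPKM in MD1 and 0.286 FPKM in WT, both named after their values were seen.

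**Figure D3:**
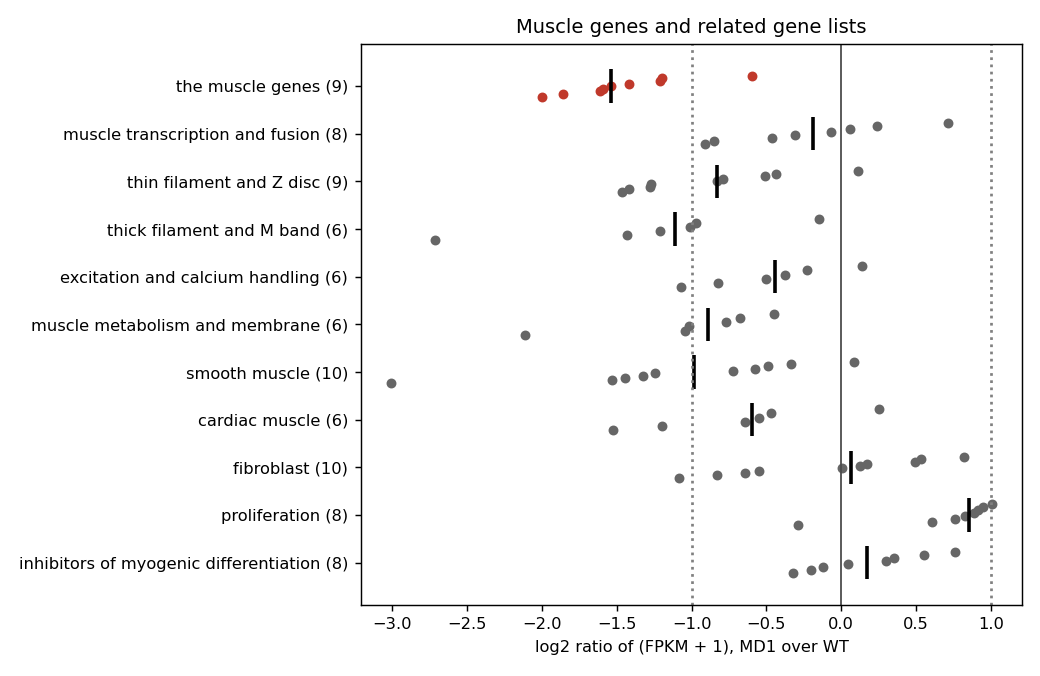
Log2 ratio of (FPKM + 1), MD1 over WT, for each gene that met the minimum, by gene list, with the number of genes in brackets, vertical bars at the medians and dotted lines at 2-fold. The muscle genes (red, 9 of the 10) have a median of -1.54, and the proliferation genes, at 0.86, lie on the other side of 0.

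Most measured genes on the smooth muscle and cardiac lists were lower in MD1 as well, 9 of 10 on the smooth muscle list and 5 of 6 on the cardiac list. Of all genes that met the minimum, 49.2% were lower in MD1. Of 10 measured smooth muscle genes, 5 were at least 2-fold lower (median -0.98), and the 11 genes of that list summed to 3548 FPKM in MD1 and 5836 FPKM in WT. Myh11, the smooth muscle myosin gene, had 2.31 FPKM in MD1 and 25.6 FPKM in WT, and Smtn, the exception on this list, 51.1 FPKM in MD1 and 48.02 FPKM in WT. Of 6 measured cardiac genes, 2 were at least 2-fold lower (median -0.59), and the 13 genes of the list summed to 19.5 FPKM in MD1 and 32.2 FPKM in WT. Of the 2, Tbx20 met the minimum through its WT value, with 0.331 FPKM in MD1 and 2.84 FPKM in WT. Gata4, a heart transcription factor gene, had 2.61 FPKM in MD1 and 7.27 FPKM in WT, and Nppb, a natriuretic peptide gene, was higher with 7.20 FPKM in MD1 and 5.88 FPKM in WT. Myl2 and Pln, both on the cardiac list, were listed at 0 in MD1 and at 0.0149 and 0.0167 FPKM in WT. These genes and Tnni3 were under the minimum and so outside the 6 measured cardiac genes. By comparison, the 10 skeletal muscle genes summed to 61.5 FPKM in MD1 and 194.6 FPKM in WT, or 31.6% of WT. The 101 further skeletal muscle genes summed to 68.1% of WT, and the smooth muscle list to 60.8%. Such sums rest largely on the most abundant genes. Tpm1 alone had 2013 FPKM in MD1 and 2869 FPKM in WT, and Acta2 on the smooth muscle list 1826 FPKM in MD1 and 3015 FPKM in WT. The sums therefore do not rank the lists by change. Des, Actc1, Tnnt2 and Tnnc1 are also used in cardiac muscle and Des in smooth muscle, and the part of these cells in the differences was not tested.

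The fibroblast list had a median near 0, and the proliferation list was higher in MD1. The 10 fibroblast genes had a median of 0.066, with 1 at least 2-fold lower and 0 higher, and summed to 5181 FPKM in MD1 and 6079 FPKM in WT. They went both ways. Fap, a surface protease gene, had 0.890 FPKM in MD1 and 3.003 FPKM in WT, and the collagen gene Col1a2 477.3 FPKM in MD1 and 848.7 FPKM in WT, while Pdgfra, a growth factor receptor gene, had 9.25 FPKM in MD1 and 4.79 FPKM in WT. Lum and Thy1, named after their values were seen, were at 152.8% and 141.2% of WT. Of 8 proliferation genes, 7 were higher (median 0.86), 1 of them past 2-fold, and the list summed to 486.7 FPKM in MD1 and 330.3 FPKM in WT. Mki67, a marker of dividing cells, had 32.8 FPKM in MD1 and 15.8 FPKM in WT. Ccnd1, the cyclin D1 gene, was lower at 95.6 FPKM in MD1 and 116.8 FPKM in WT. Of 8 measured inhibitors of myogenic differentiation, 0 were past 2-fold (median 0.17), with 5 higher and 3 lower in MD1. One of the lower ones, Hes1, named after its values were seen, had 39.4 FPKM in MD1 and 49.6 FPKM in WT. Among the higher ones Id3, which blocks the partners of MyoD, had 270.7 FPKM in MD1 and 212.2 FPKM in WT. Snai1, a repressor at E-boxes, had 54.8 FPKM in MD1 and 31.9 FPKM in WT. The part of proliferation in the level of the muscle genes was not tested.

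The genes around each muscle gene had medians near 0, with single genes past 2-fold. The 10 genes lie on 6 autosomes, 4 of them on chromosome 1 and 2 on chromosome 7. Within 500 kb of them were 124 genes that met the minimum, with a median log2 ratio of -0.010, of which 5.65% were at least 2-fold lower, against 2.81% of all genes. For single muscle genes the neighbours' median ranged from -0.30 at Myl1 to 0.28 at Actc1. None of the neighbours of Acta1, Actc1, Des, Myh3, Tnnc1 and Myl1 had a ratio as low as that gene. Near Tnnt2, Tnni1 was lower than Tnnt2 itself, at -1.46. Near Myog, Btg2, a gene that slows cell division, had 18.5 FPKM in MD1 and 44.6 FPKM in WT, and Mybph, a myosin-binding protein gene 88.8 kb away, had 0.808 FPKM in MD1 and 2.54 FPKM in WT. Near Myod1, Tph1, a gene of serotonin synthesis, had 8.74 FPKM in MD1 and 50.3 FPKM in WT, a log2 ratio of -2.40 that was below that of Myod1, and the acute-phase gene Saa3 had 150.2 FPKM in MD1 and 0.816 FPKM in WT. Near Tnnt1, Cox6b2 had a log2 ratio of -1.60, below that of Tnnt1, and Ssc5d one of -1.08. Fmod near Myog and Map2 near Myl1 were past 2-fold too, at -1.07 and -1.29. The F1 fathers pass on JF1 alleles of autosomes in blocks, and the table gives no allele-specific reads for autosomal genes. Differences in inherited blocks, or between the cultures, cannot be told apart from the Smchd1 genotype.

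**Figure D4:**
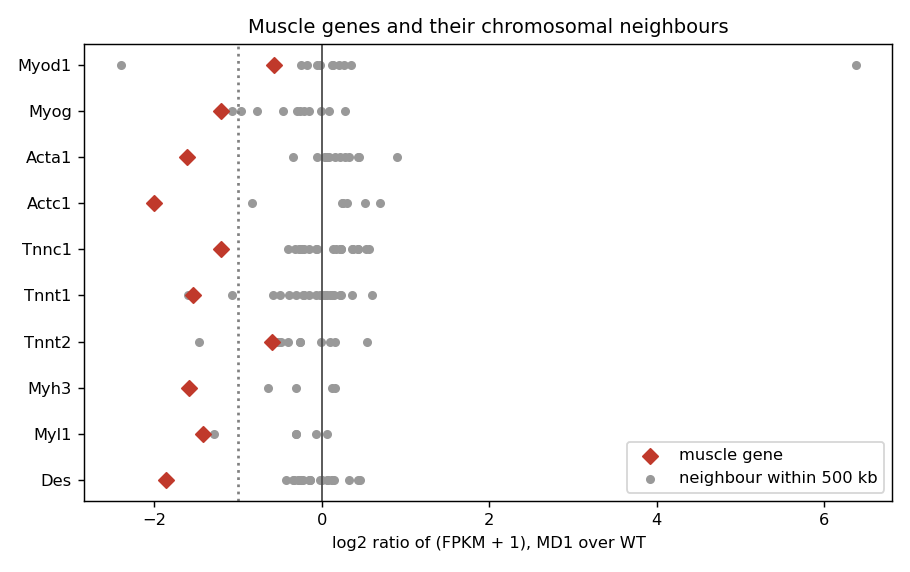
Log2 ratio of (FPKM + 1), MD1 over WT, of each muscle gene (red diamonds) and of the genes within 500 kb of it that met the minimum (grey points); the dotted line marks a 2-fold lower value. The grey points gather around 0, with medians of -0.30 to 0.28, and the point far to the right near Myod1 is Saa3 at 6.38.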

How the data were processed

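Total expression was deposited by the authors as FPKM, with 1 mean per genotype over 2 libraries, per the file headers. The submitters' processing notes name Cufflinks 2.2.1, Cuffdiff and the build mm9, with no role or order; for aligner and annotation, the sources used here state nothing. Allele-specific reads of X-linked genes were deposited by the authors as counts per library, per the file headers, and were used for depth alone. Ratios were formed from the deposited means as log2(FPKM + 1), MD1 over WT, with Python 3.11.15 and pandas 2.3.3, and called past 2-fold without a test. The calculation was tested on simulated data, in which genes of 5 FPKM or more were changed without noise. That checks the arithmetic alone, and neither the spread between libraries nor low genes. Alternatives were a pseudocount of 0.1 or none, other minimums, a 1.5-fold bound, centring and quantile normalization. Starts were printed 1-based: with the start moved up by 1, 9510 spans equalled the RefSeq gene length, against 620 as given. Motifs were sought in RefSeq promoters of GRCm38.p6, and 50-base words in GENCODE vM21 transcripts. Named in the text were the 10 genes, Smchd1, neighbours and, per list, the 3 genes with the largest change and the 3 with the highest level; others are said to be chosen after their values were seen. The genes and lists were chosen with earlier results of these data known. The labels do not tell whether the libraries of a group are from different fetuses.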

Additional observations from a re-analysis of the deposited data

How the results depend on the processing

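All 10 muscle genes kept a negative ratio after quantile normalization. With a pseudocount of 0.1 or none the sign could not change, as the same value is added to both groups. The autosomal median used for centring was only 0.0012. After centring and after quantile normalization all 10 kept their side of the 2-fold bound. With a pseudocount of 0.1 or none 9 of the 10 did. The exception was Myod1, at -1.12 with 0.1 and -1.25 with none. Of the 10 genes, 8 were past 2-fold, and 5 with a minimum mean of 5 FPKM, which leaves fewer genes to count. The transcription factor median, -0.89, became -1.38 with 0.1 and -1.48 with none, and its distance to the sarcomere median 0.33 and 0.27, since the pseudocount weighs most on low values. With 0.1 the thin filament median was -1.59 and that of muscle metabolism -1.18. Without a minimum the thick filament median was -0.17 and that of the inhibitors -0.036, as many genes near 0 enter. Total depth is unknown. No paired analysis was possible because total expression is given as 1 mean per group, so leaving out a library could not be run either.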
